A study of Mus musculus with 4 samples.

Results

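The mitochondrial respiratory chain genes were taken as the mm10 RefSeq nuclear protein-coding genes whose symbols start with Nduf, Sdh, Uqc, Atp5, or Cox followed by 4 to 8. This rule, which uses symbols and no measured value, found 103 genes among 21627 protein-coding genes on the chromosomes that carry loops: 88 subunit genes and 15 assembly factor genes. Another 19 non-coding copies with such symbols were left out. The respiratory chain lies in the inner mitochondrial membrane. Complexes I and II pass electrons from NADH and succinate to ubiquinone, complex III passes them on to cytochrome c, and complex IV passes them to oxygen. The proton gradient built by complexes I, III and IV drives ATP synthase, complex V. The nuclear genes for these subunits are scattered over the genome and are read in nearly every tissue, the uterus included, and the factors NRF1 and GABP (nuclear respiratory factors) are known to bind the promoters of many of them.

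The question here was how often these genes lie at the anchors of chromatin loops in the mouse uterus, which genes lie at the opposite anchors, and which of these loops were listed under each condition. Hi-C, which joins and sequences DNA pieces that lie close together in the nucleus, was run on whole uterus of C57BL/6J females that were over 10 weeks old, ovariectomised and rested for 10 to 14 days. There were 2 wild-type vehicle libraries (numbered 2 and 3 in the labels), 1 wild-type progesterone library and 1 vehicle library of the Ex3aERKO line, an estrogen receptor alpha knockout. Vehicle animals received saline (100 ul) intraperitoneally and treated animals 1 mg progesterone, carried in sesame oil (100 ul), subcutaneously, so carrier and route differed together with the hormone. Tissue was frozen 1 h later. The sources used here do not say whether a library is 1 animal or a pool, and loop positions give no check of the tissue by its markers or of the deletion.

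Vehicle replicate 2 had 16387 listed loops, vehicle replicate 3 had 9385, the progesterone library 11752 and the knockout library 21829. They give positions only, so depth and loop strength are unknown, and a loop missing from a list was not called there, which does not show that it is absent. With 1 progesterone and 1 knockout library, differences between conditions have no replicate check and no test was made. The intervals below are exact (Clopper-Pearson) 95% intervals and cover counting error only. Where loops are counted, they treat each loop as independent, although a gene can have several. Genes counted as anchored where their start or end coordinate fell within an anchor.

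Promoter sequences are shown for the 5 members at anchors in 3 or 4 libraries that carry an NRF1 motif before the start site, to show where in the promoter the motif lies. They are the 250 bases before the start site from RefSeq, build GRCm38.p6, 5′ to 3′ on the strand of the gene, and capitals mark the palindromic NRF1 motif of 10 bases. The first 4 genes were at anchors in all 4 libraries and the last was at an anchor in 3. They encode a membrane-ring subunit and another membrane-domain subunit of ATP synthase (Atp5g2 at chr15:102671048-102671297, minus strand, and Atp5k at chr5:108434400-108434649, minus strand), an accessory subunit of complex I (Ndufa11 at chr17:56717512-56717761, plus strand), a complex I assembly factor (Ndufaf4 at chr4:24897833-24898082, plus strand) and a complex IV subunit (Cox6a1 at chr5:115348959-115349208, minus strand).
Atp5g2: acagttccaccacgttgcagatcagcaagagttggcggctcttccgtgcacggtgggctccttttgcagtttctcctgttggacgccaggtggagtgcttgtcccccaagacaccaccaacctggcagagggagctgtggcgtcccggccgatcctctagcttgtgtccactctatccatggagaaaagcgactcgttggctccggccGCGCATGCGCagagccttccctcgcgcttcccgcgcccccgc
Atp5k: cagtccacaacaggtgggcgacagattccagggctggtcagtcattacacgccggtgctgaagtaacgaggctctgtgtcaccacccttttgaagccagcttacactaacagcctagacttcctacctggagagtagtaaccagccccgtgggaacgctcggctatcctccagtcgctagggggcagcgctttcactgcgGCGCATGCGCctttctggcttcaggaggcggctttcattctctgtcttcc
Ndufa11: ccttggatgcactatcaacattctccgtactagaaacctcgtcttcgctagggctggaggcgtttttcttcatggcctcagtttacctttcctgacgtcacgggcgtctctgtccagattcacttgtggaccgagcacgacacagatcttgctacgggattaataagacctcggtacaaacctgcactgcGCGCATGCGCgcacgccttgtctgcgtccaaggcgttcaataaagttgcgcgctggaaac
Ndufaf4: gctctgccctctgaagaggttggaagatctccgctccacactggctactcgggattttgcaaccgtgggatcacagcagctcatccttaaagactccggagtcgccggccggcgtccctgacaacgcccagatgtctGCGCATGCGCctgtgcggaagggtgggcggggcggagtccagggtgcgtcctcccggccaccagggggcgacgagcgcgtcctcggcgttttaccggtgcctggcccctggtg
Cox6a1: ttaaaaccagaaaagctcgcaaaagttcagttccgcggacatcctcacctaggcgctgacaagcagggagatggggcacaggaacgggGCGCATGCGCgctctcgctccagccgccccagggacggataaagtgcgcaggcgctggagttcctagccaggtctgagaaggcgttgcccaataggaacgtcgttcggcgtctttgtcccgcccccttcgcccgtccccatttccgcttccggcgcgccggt

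The NRF1 motif was searched in the window from 250 bases before to 50 bases after the start, which was known for 85 of the 103 members and 17273 genes in all. It was present at 7 of 85 members (8.24%) and at 257 of 17273 genes (1.49%). Among the 17 members whose start site was in an anchor of all 4 libraries, 5 carried it: the first 4 shown and Ndufaf5, another complex I assembly factor. The share of all genes in that class was not counted, so the 5 of 17 has no background and a link with anchoring was not tested. Of the 58 members with the start site in an anchor of any library 6 carried it (10.3%; 2.16% of all such genes), and of the 27 with the start site in no anchor 1 did (3.70%; 0.908% of all such genes), namely Uqcrc1, a core subunit of complex III. A YY1 motif of 11 bases, searched on both strands like the others, was at 5 of 85 members (5.88%) against 1.07% of all genes, and the 5 were Ndufa9, Ndufaf8, Ndufs4, Ndufs6 and Ndufs7. The ETS motif CCGGAAGT, the kind bound by GABP, was at 5 of 85 members (5.88%) against 5.76% of all genes. It was at 2 of the 58 anchored and 3 of the 27 unanchored members, where all genes gave 8.57% and 3.33%. The estrogen response half-site AGGTCA was at 20 of 85 members (23.5%) against 16.6%, and a core CTCF motif of 14 bases was at 0 of 85 members and at 9 of 17273 genes. These are matches of letters in one window, not measured binding.

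Respiratory chain genes lay at loop anchors in every library, more often than the average protein-coding gene. In vehicle replicate 2, 44 of 103 members were at an anchor (42.7%, interval 33.0 to 52.8%) against 34.3% of all genes. In vehicle replicate 3, it was 35 members (34.0%, 24.9 to 44.0%) against 23.9%. After progesterone 33 members were at an anchor (32.0%, 23.2 to 42.0%) against 27.8%, and in the knockout 59 (57.3%, 47.2 to 67.0%) against 43.6%. The background lay inside the interval of the members in vehicle replicate 2 and after progesterone and below it in the other two libraries. The knockout list was the longest and had the most members at anchors, while vehicle replicate 3, with the shortest list, had 2 more than progesterone.

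The members differ from other genes in ways that bear on this share. They are short, with a median length of 7.39 kb against 17.3 kb, and they have a median of 5 genes within 100 kb against 4. Weighting all genes to the neighbour counts of the members gave 33.6, 23.3, 27.1 and 43.3% in vehicle replicate 2, vehicle replicate 3, progesterone and knockout, close to the unweighted values. Weighting to gene length instead gave 29.7, 20.9, 23.8 and 37.9%. Leaving olfactory and pheromone receptor, defensin and unnamed genes out of the comparison raised the background to 38.7, 26.8, 31.3 and 49.1%, which is inside the interval of the members in all 4 libraries, and after progesterone within 1 point of their share. When any overlap of the gene body with an anchor counted, which favours long genes, the order turned after progesterone: 35.0% of members against 37.7% of all genes.

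The start site itself gave a wider gap. It lay in an anchor for 34 and 26 of 85 members in vehicle libraries 2 and 3 (40.0 and 30.6%), for 27 with progesterone (31.8%) and for 51 in the knockout (60.0%), where all genes gave 28.0, 17.5, 21.9 and 38.5%. Promoter composition moved with this measure. Among all genes with 15 or more CpG dinucleotides in the promoter window the shares were 40.8, 24.4, 31.4 and 58.0%, and among those with fewer they were 14.8, 10.5, 12.0 and 18.5%. The 66 members with 15 or more CpG gave 45.5, 36.4, 34.8 and 65.2%, so the gap was narrower among CpG-rich promoters in every library. The gene length weighting, the reduced gene set and the CpG split were chosen after the data were seen, and the part of each in the result was not tested.

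**Figure D1:**
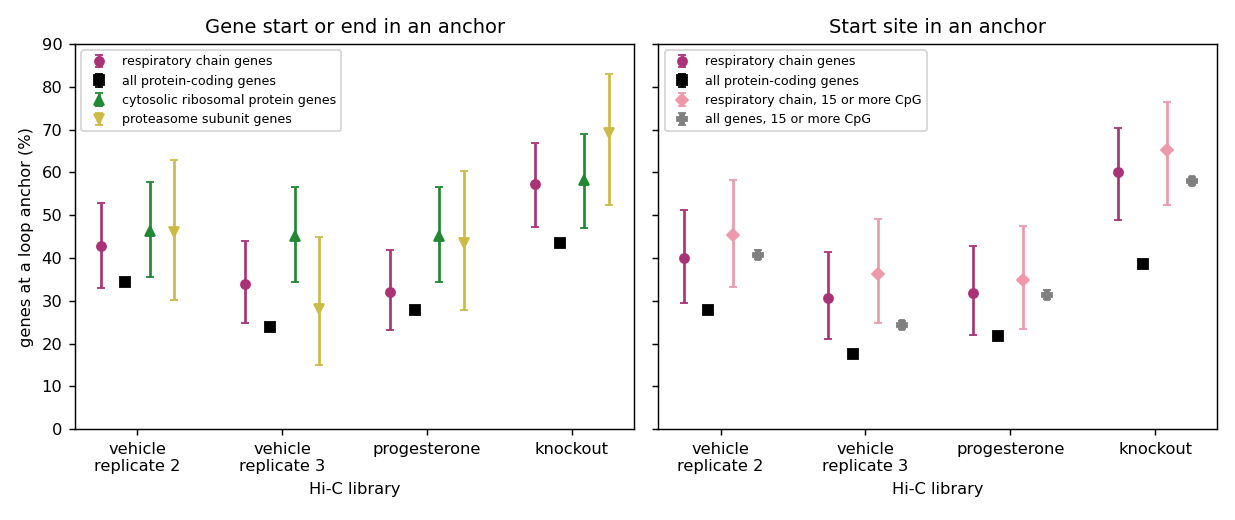
Share of genes at a loop anchor (percent) in each of the 4 Hi-C libraries, by gene start or end (left) and by start site alone (right). Points are shares and bars exact 95% intervals. The respiratory chain genes run from 32.0% after progesterone to 57.3% in the knockout on the left, and the right panel adds genes with CpG-rich promoters, whose share lies above that of all genes in each library.

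Housekeeping complexes of similar kind had shares in the same range. Of 84 cytosolic ribosomal protein genes, 46.4, 45.2, 45.2 and 58.3% were at anchors in vehicle replicate 2, vehicle replicate 3, progesterone and knockout. Of 39 proteasome subunit genes, 46.2, 28.2, 43.6 and 69.2% were. The ribosomal genes lay above the respiratory chain genes in each library, with intervals that overlap, and the difference was not tested.

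Distances showed how near to anchors the other members were. From the nearer gene end to the nearest anchor, the median member of the vehicle libraries 2 and 3 was 1.49 and 9.16 kb away, that of the progesterone library 9.58 kb and that of the knockout 0 kb. All genes gave 7.30, 18.2, 13.2 and 2.29 kb. Members in loop-poor regions were few: 7, 14, 13 and 2 members were over 100 kb from any anchor (6.80, 13.6, 12.6 and 1.94%), against 16.4, 22.6, 19.4 and 14.6% of all genes. All genes here include the receptor, defensin and unnamed genes, and distances without them were not taken.

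**Figure D2:**
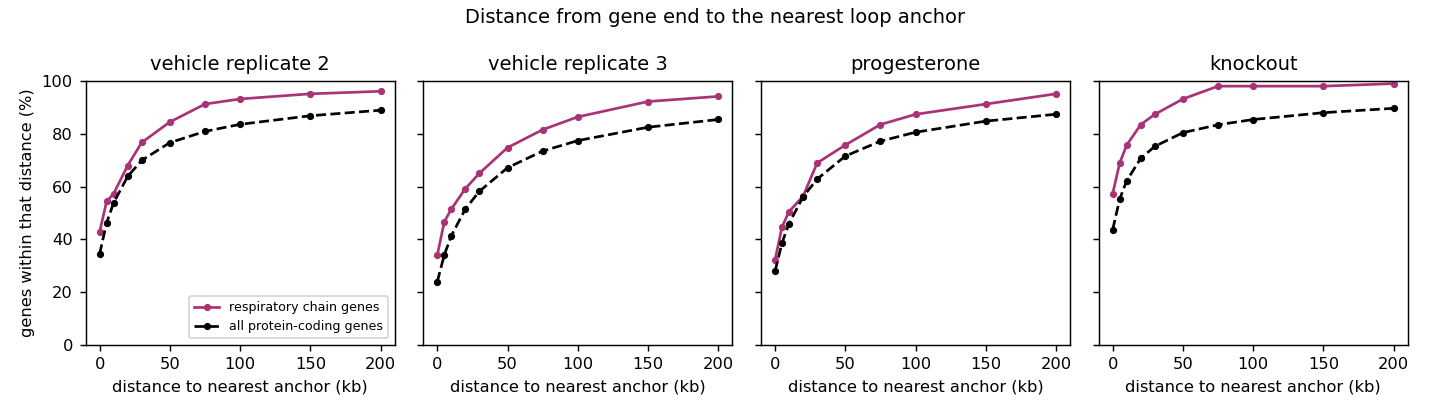
Cumulative share of genes (percent) within a given distance (kb) of the nearest loop anchor, 1 panel per library, for respiratory chain genes (solid) and all protein-coding genes (dashed). The solid curve is above the dashed curve at short and long distances in each panel, and the 2 curves nearly meet at about 20 kb after progesterone.

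Over the 4 libraries, 72 of 103 members (69.9%) were at an anchor at least once, against 53.6% of all genes. Of these 26 were there in 1 library, 12 in 2, 15 in 3 and 19 in all 4. The 19 in all 4 make 18.4% of the members (11.5 to 27.3%), against 14.0% of all genes. The gene set without receptor, defensin and unnamed genes was not counted here or for genes never at an anchor. The 19 members come from every complex. Complex I gave 7 of 41 subunit genes. Ndufa7, Ndufa10, Ndufa11, Ndufb6 and Ndufb8 encode accessory subunits around the core, and Ndufs7 and Ndufv2 encode iron-sulfur subunits. The complex I assembly factors gave 3 of 8 (Ndufaf2, Ndufaf4 and Ndufaf5). Complex II gave Sdhb, the iron-sulfur subunit, of 4 subunit genes, and its assembly factor Sdhaf4. Complex III gave Uqcrfs1, the Rieske iron-sulfur protein, of 8 subunit genes, and the assembly factor Uqcc1. Complex IV gave Cox4i2 and Cox8b, both alternative isoforms, of 18 genes. Complex V gave Atp5b, the catalytic beta subunit, Atp5g2 and Atp5k, of 17 genes.

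Assembly factors were at an anchor in some library in 13 of 15 cases and subunits in 59 of 88. Assembly factors had the higher share in each library, with 8, 6, 7 and 13 of 15 at anchors in vehicle replicate 2, vehicle replicate 3, progesterone and knockout (53.3, 40.0, 46.7 and 86.7%), against 36, 29, 26 and 46 of 88 subunits (40.9, 33.0, 29.5 and 52.3%). The gap was widest in the knockout, where the intervals, 59.5 to 98.3% and 41.4 to 63.0%, overlapped least. It was not tested. Complex I subunit genes counted 18, 13, 12 and 23 of 41 in vehicle replicate 2, vehicle replicate 3, progesterone and knockout. Complex IV genes counted 7, 5, 6 and 8 of 18, and complex V genes 7, 8, 4 and 8 of 17. Never at an anchor were 7 of 18 complex IV genes, 13 of 41 complex I and 5 of 17 complex V subunit genes, and 31 of 103 members in all (30.1%), against 46.4% of all genes. Ndufa4 is counted here with complex I by its symbol, although its protein is now placed in complex IV.

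**Figure D3:**
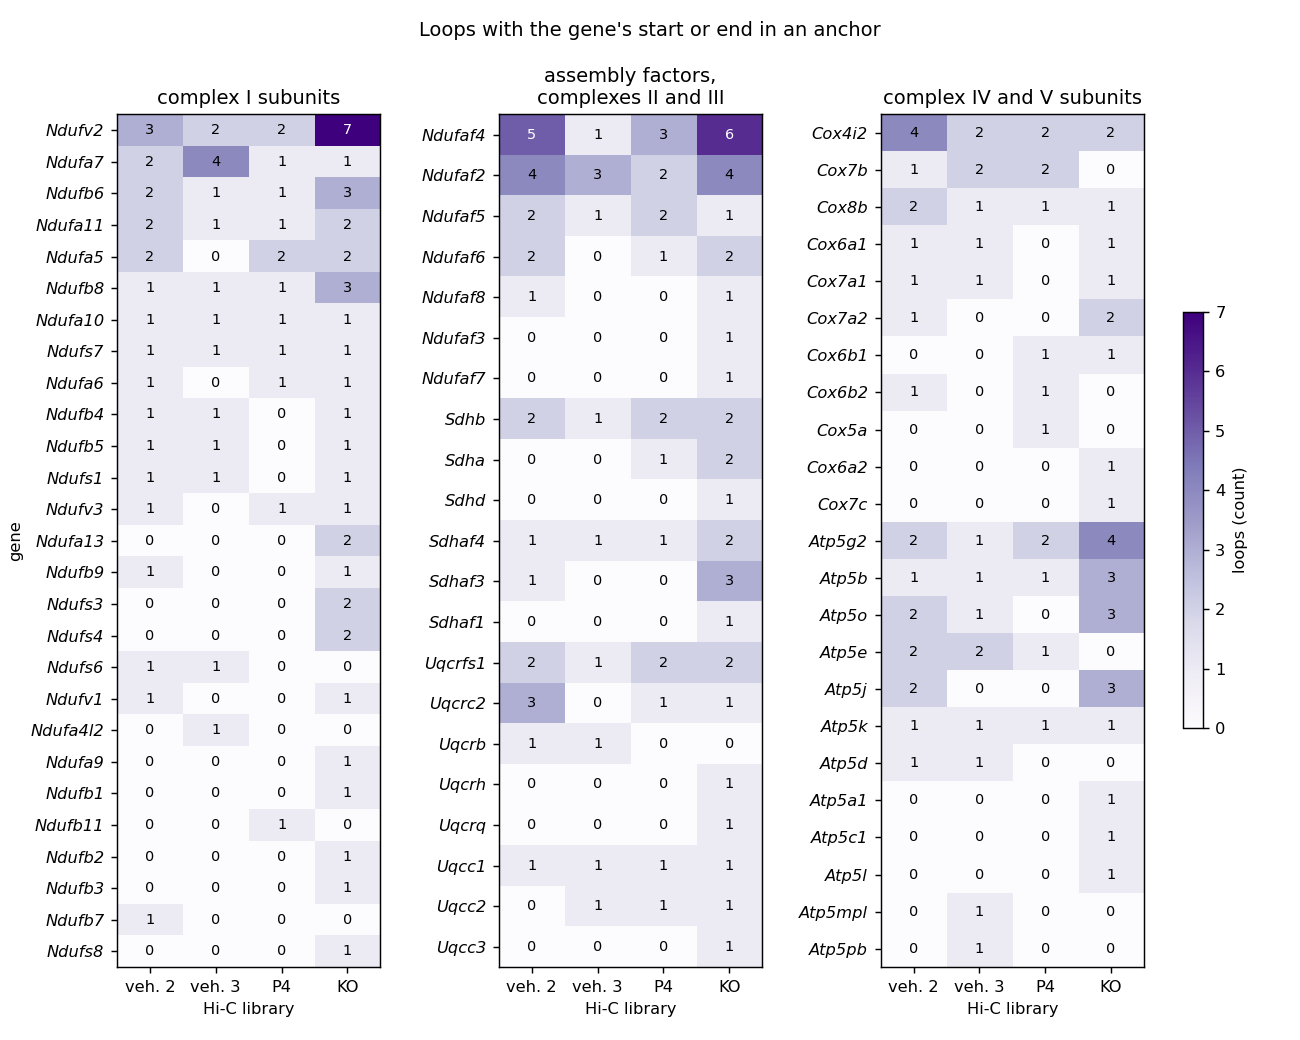
Number of loops with the start or end of the gene in an anchor, for 71 of the 72 members at an anchor in at least 1 library (rows) in vehicle replicates 2 and 3 (veh. 2, veh. 3), progesterone (P4) and knockout (KO). The darkest cells are Ndufv2 with 7 and Ndufaf4 with 6 loops in the knockout, and most cells hold 0 or 1.

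The members had few loops each. There were 71, 44, 44 and 100 loops at members in vehicle replicate 2, vehicle replicate 3, progesterone and knockout, 259 in all. An anchored member had on average 1.61, 1.26, 1.33 and 1.69 loops, and an anchored gene of any kind 1.66, 1.36, 1.47 and 2.04. In the knockout 37.3% of anchored members had 2 or more loops, against 54.0% of anchored genes. A loop at either gene end counts, and members are shorter (median 7.39 against 17.3 kb). Loop numbers were not weighted to gene length. None of the 259 listed loops joined one member to another, and no anchor held 2 members. The 259 count a loop once for each list that held it. No such count was made for other gene groups of this size, so this is not read as a trait of the members.

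The loops at members were of short to middle length. Their medians were 135, 145, 122.5 and 132.5 kb in the 4 libraries, against 160, 175, 170 and 140 kb for loops at any gene. With anchors of 5 kb alone the medians were 70, 70, 70 and 80 kb, against 100, 100, 95 and 90 kb. The order turned with wide anchors in 3 of the 4 lists. At 25 kb anchors the medians were 475, 475 and 1000 kb at members against 375, 425 and 525 kb in vehicle replicate 3, progesterone and knockout, while in vehicle replicate 2 they were 400 kb against 475 kb. At 10 kb anchors in the knockout they were 260 kb against 230 kb.

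The opposite anchor often held another gene. In vehicle replicate 2 it did for 41 of 71 loops at members (57.7%, 45.4 to 69.4%), against 43.3% over all gene-bearing anchors. The other libraries gave 24 of 44 (54.5%, background 41.0%) in vehicle replicate 3, 26 of 44 (59.1%, background 43.2%) after progesterone and 70 of 100 (70.0%, background 52.4%) in the knockout. The intervals of all libraries but vehicle replicate 3 lie above the background, that of progesterone barely, at 43.2 to 73.7%. They treat loops as independent, although the 71 loops of vehicle replicate 2 lie at 44 members and the 100 of the knockout at 59. The intervals may therefore be too narrow, and a place just above the background is not firm. At 25 kb anchors in vehicle replicate 2 the order turned, with 8 of 16 loops at members against 58.3% over all gene-bearing anchors.

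**Figure D4:**
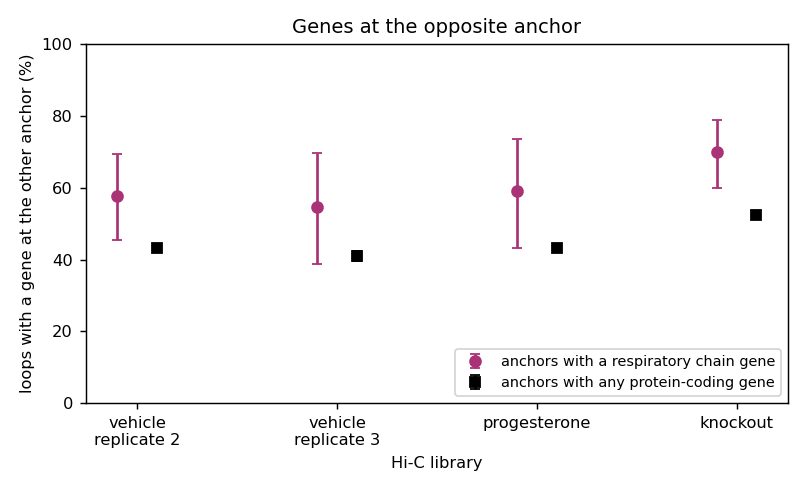
Percent of loops whose opposite anchor holds the start or end of a protein-coding gene, for anchors with a respiratory chain gene (circles, exact 95% intervals) and for anchors with any protein-coding gene (squares), by library. The circles run from 54.5% to 70.0% and the squares from 41.0% to 52.4%.

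Partner genes that recurred in all 4 lists were found for 5 members. Cox4i2, an isoform of a regulatory subunit of complex IV that is known from lung and from low oxygen, was joined over 65 kb to the anchor with Bcl2l1, which encodes the anti-apoptotic protein Bcl-xL, between chr2:152765001-152770000 and chr2:152830001-152835000. Ndufb6 was joined over 135 kb to Aco1, the cytosolic aconitase that also acts as an iron-regulatory protein, between chr4:40140001-40145000 and chr4:40275001-40280000. The assembly factor Uqcc1 was joined over 100 kb to Gdf5, a growth factor of the BMP family, between chr2:155845001-155850000 and chr2:155945001-155950000. These 3 loops had identical anchor bins in all 4 lists. The start site of Ndufb6 was in its anchor, that of Uqcc1 was not, and that of Cox4i2 was unknown. Ndufs7 was joined to Fam174c and Ndufv2 to Twsg1, a secreted BMP-binding protein, in every list, at bins that differed by library. Other repeated partners were called in 3 lists: Atp5g2 with the transcription factor gene Atf7, Sdhb with Necap2, Sdhaf4 with Smap1, Ndufaf4 with Ufl1 (each pair missing from vehicle replicate 3), and Ndufa7 with Actl9, Ndufa11 with Dus3l and Ndufv2 with Vapa (each pair missing from the knockout). For 5 of these 7 the loop itself was matched within 10 kb in the list that lacked the pair, the exceptions being the loops of Sdhb and Ndufaf4.

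Several members share their anchor with a neighbouring gene, which a loop at this resolution cannot separate. Of the members at anchors, 21 of 44, 20 of 35, 15 of 33 and 31 of 59 were in every case together with another gene in the anchor. The share among all anchored genes was not counted, so this is a limit of the placement and not a trait of the members. Ndufaf2 was always with Ercc8, a DNA repair gene, and Ndufa7 shared its main anchor with Kank3 and the ribosomal protein gene Rps28. Atp5j, a peripheral-stalk subunit of ATP synthase, shared 10 kb anchors with Gabpa, the alpha subunit of GABP. The single-gene anchors are therefore the cleaner cases, among them Sdhb, Atp5g2 and Ndufaf4 at 5 kb, each with its start site inside. Cox4i2 was alone in its 5 kb anchor too, but barely reached it. The gene ends at base 152765039, the anchor begins at 152765001, and its start site was unknown.

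Ndufv2, a subunit of the NADH-oxidising arm of complex I at chr17:66078795-66101559, had 3, 2, 2 and 7 loops in vehicle replicate 2, vehicle replicate 3, progesterone and knockout. The 500 kb loop towards Vapa and the 150 kb loop to Twsg1 were matched in all 4 lists. The knockout list added 4 loops that neither vehicle list held, among them a 12.6 Mb loop to Rab5a, a gene of early endosome traffic. Ndufaf4 had 5, 1, 3 and 6 loops, and the 175 kb loop was matched in all lists with no gene at the far anchor. Ndufaf2 had 4, 3, 2 and 4 loops of 110 to 1050 kb, and a loop of 690 to 700 kb at the gene in the 3 wild-type lists was matched in the knockout list as well.

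Cox4i2, at chr2:152753916-152765039, had 4, 2, 2 and 2 loops and reached the same pair of regions, 60 to 70 kb before and 65 kb after its anchor, in every library. Atp5g2 had 2, 1, 2 and 4 loops, of which the one of 45 to 50 kb was matched in all. Uqcrfs1 had 2, 1, 2 and 2 loops, and a loop of 450 to 465 kb was in each list with no gene at the far anchor. Sdhb had 2, 1, 2 and 2 loops of 60 to 115 kb. In these genes the vehicle replicate 3 list, the shortest, had as few loops as any other list or fewer.

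**Figure D5:**
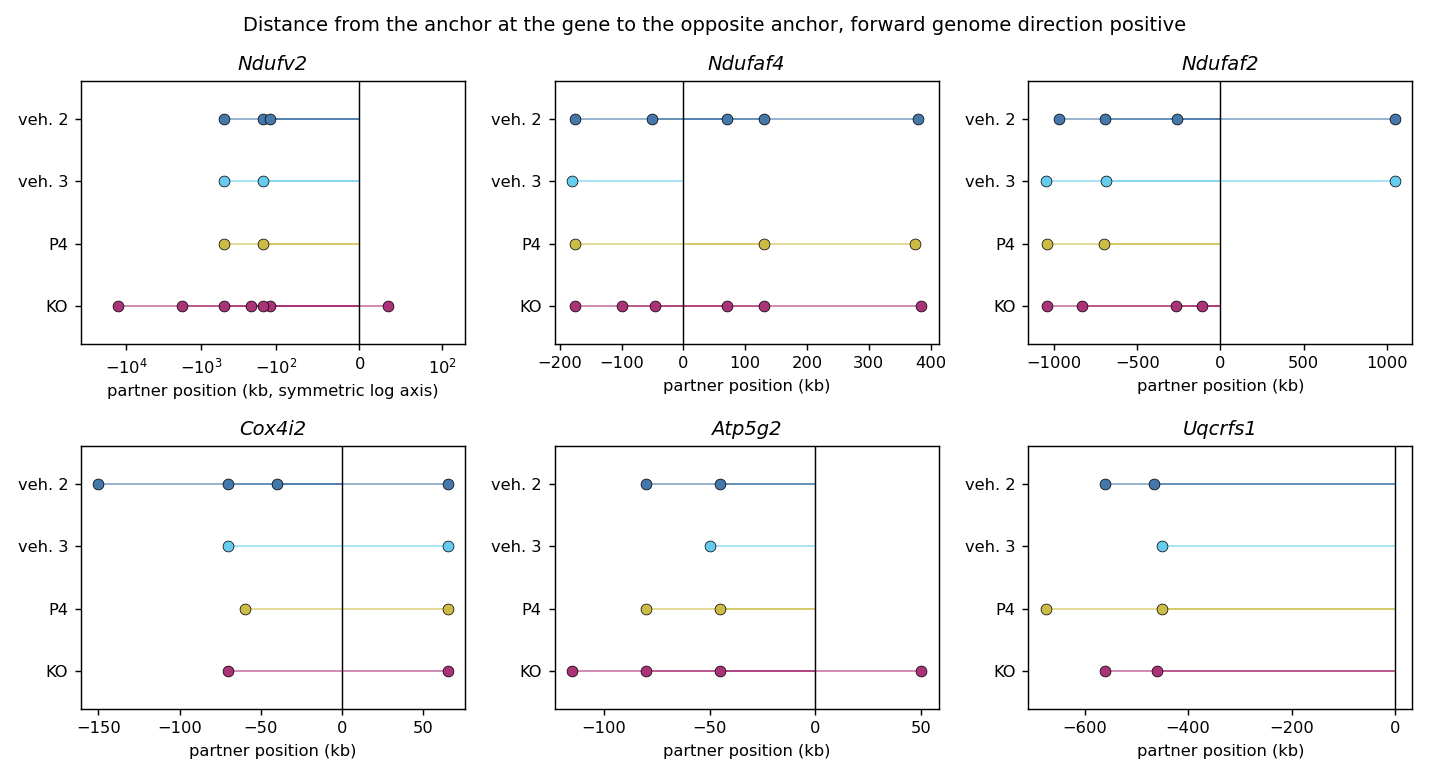
Position of the opposite anchor relative to the anchor at the gene (kb, forward genome direction positive; symmetric log axis for Ndufv2) for 6 members with loops in all libraries, chosen after their values were seen. Each point is 1 loop and rows are vehicle replicates 2 and 3 (veh. 2, veh. 3), progesterone (P4) and knockout (KO). Points at matching positions recur down the rows, such as 65 kb for Cox4i2, and Ndufv2 has 7 points in the knockout.

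Isoform pairs of the same subunit were set side by side after their values were seen. Cox4i2 had 4, 2, 2 and 2 loops, while the ubiquitous isoform Cox4i1 had 0 in every list, its end lying 0.792 kb from an anchor in each. Cox8b, the muscle-type isoform, had 2, 1, 1 and 1 loops and Cox8a, the widespread form, 0 in every list. Atp5g2 had loops in every list and Atp5g1 and Atp5g3, which encode the same mature ring subunit, had 0 in all. For Cox6a1 the counts were 1, 1, 0 and 1 and for the muscle-type Cox6a2 0, 0, 0 and 1. Cox7a1, another muscle-type isoform, had 1, 1, 0 and 1 and Cox7a2 had 1, 0, 0 and 2. Other pairs had no such order or the opposite one. Cox7b had 1, 2, 2 and 0 loops and its isoform Cox7b2 0 in every list, Cox6b1 had 0, 0, 1 and 1 and Cox6b2 1, 0, 1 and 0, and Cox8c, a further Cox8 isoform, had 0 in every list. Cox4i1 shows how a count of 0 at this placement can hide an anchor next to the gene.

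Among loops at members in vehicle replicate 2, 29 of 71 (40.8%, 29.3 to 53.2%) were matched in the other 3 lists, where loops match when both anchors overlap after 10 kb is added to each side. All loops of that list gave 39.0% and loops at any gene 32.7%. These 29 loops belong to 26 members, 3 of which (Cox4i2, Ndufaf2 and Ndufv2) had 2. The other lists differed in this. Of 44 progesterone loops at members 68.2% (52.4 to 81.4%) were matched in the other 3 lists. All progesterone loops gave 55.0% and those at any gene 49.2%. In the knockout it was 21 of 100 (21.0%, 13.5 to 30.3%), against 29.1% of all loops and 23.0% of loops at any gene. There 47 of 100 (47.0%, 36.9 to 57.2%) were matched in none, against 37.0% of all loops and 41.2% at any gene. In vehicle replicate 3, 28 of 44 (63.6%, 47.8 to 77.6%) were matched in the other 3, against 69.4% of all loops and 65.4% at any gene. There 7 of 44 (15.9%, 6.64 to 30.1%) were matched in none, against 5.75% of all loops and 6.06% at any gene. Knockout loops at members were found in the progesterone list in 31.0% of cases (22.1 to 41.0%). All knockout loops gave 43.7% and those at any gene 38.2%, the latter inside the interval.

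After progesterone, 7 of 36 member loops that the 2 vehicle lists shared were not listed (19.4%, 8.19 to 36.0%; 15.1% of all such loops). They were at Ndufa7, Ndufb4, Ndufb5, Ndufs1, Ndufs6, Cox7a1 and Atp5o, 1 loop each. Complex I subunit genes held 5 of these 7 loops and 17 of the 36. Conversely 6 of 44 progesterone loops at members were in neither vehicle list (13.6%; 14.8% of all), at Sdha, Uqcrfs1, Cox5a, Cox6b1, Ndufb11 and Ndufaf5. A vehicle list gave as large a gap: 8 of 38 member loops shared by vehicle replicate 2 and progesterone were missing from vehicle replicate 3 (21.1%; 27.8% of all), and 0 of 30 shared by vehicle replicate 3 and progesterone were missing from vehicle replicate 2 (6.62% of all).

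Counted by gene, 9 members were at anchors in vehicle libraries 2 and 3 but not in the progesterone library (8.74%), against 3.51% of all genes, and 4 were at an anchor after progesterone and in neither vehicle list (3.88%), against 3.75%. The 9 are Ndufb4, Ndufb5, Ndufs1 and Ndufs6 of complex I, Uqcrb of complex III, Cox6a1 and Cox7a1 of complex IV, and Atp5d and Atp5o of complex V. There were 31 members at anchors in the pair of vehicle lists (30.1%; 18.4% of all genes), so the 9 are 29.0% of them, where all genes gave 19.0%. Swapping the roles of the lists gave 6 of 28 members (21.4%) at anchors in vehicle replicate 2 and progesterone and not in vehicle replicate 3, and 1 of 23 (4.35%) at anchors in vehicle replicate 3 and progesterone and not in vehicle replicate 2. As shares of all genes these swapped classes held 6.8 and 2.34%, drawn from 21.7 and 17.3% at anchors in the pairs of lists. Distances to the nearest progesterone anchor split the 9: Cox6a1 was 0.652 kb, Atp5d 0.828 kb and Atp5o 3.37 kb from one, while Ndufb4 was 20.6 kb, Uqcrb 24.7 kb, Ndufb5 27.1 kb, Ndufs6 91.5 kb, Ndufs1 144 kb and Cox7a1 229 kb away. For the first 3 an anchor still lay within 5 kb of the gene. The 160 kb Atp5d loop of vehicle libraries 2 and 3 was matched in the progesterone list. The 50 kb Cox6a1 loop of vehicle replicate 2 was matched there too, and the 70 kb one of vehicle replicate 3 was not.

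In the knockout, 22 members were at an anchor there and in neither vehicle list (21.4%), against 12.1% of all genes, and 20 of them in no wild-type list (19.4%, 12.3 to 28.4%), against 10.0% of all genes. Complex I gave 8 of them: Ndufa13, Ndufs3 and Ndufs4 with 2 loops each and Ndufa9, Ndufb1, Ndufb2, Ndufb3 and Ndufs8 with 1 each. Ndufs4 encodes a subunit needed for late steps of complex I assembly. Its assembly factors Ndufaf3 and Ndufaf7 had 1 loop each, as did Sdhd, Sdhaf1, Uqcrh, Uqcrq, Uqcc3, Cox6a2 and Cox7c, and Atp5l, Atp5a1 and Atp5c1, the last 2 encoding the alpha and gamma subunits of the ATP synthase head. Single wild-type lists alone held far fewer: 1 member was at an anchor in vehicle replicate 2 only (2.96% of all genes), 3 in vehicle replicate 3 only (1.72%) and 2 in progesterone only (1.64%). The knockout list is also the longest of the 4, and list length, genotype and library cannot be told apart.

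By loop, 51 of 100 knockout loops at members were in neither vehicle list (51.0%, 40.8 to 61.1%), against 40.6% of all knockout loops. Members with several such loops were Ndufv2 with 4 and Ndufa13, Ndufb8, Ndufs3, Ndufs4, Sdha, Sdhaf3, Atp5g2, Atp5j and Atp5o with 2 each. In the other direction 1 of 36 loops that the 2 vehicle lists shared was missing from the knockout (2.78%; 10.0% of all), the loop of about 280 kb from Ndufs6, an accessory subunit of complex I, to Clptm1l. That loop was missing after progesterone as well. With 0 kb added when loops were matched, 9 were missing from the knockout, and the share of all loops was not taken there. The vehicle lists differed among themselves by 22 of 49 loops (44.9%; 40.7% of all) shared by vehicle replicate 2 and the knockout and missing from vehicle replicate 3, and by 0 of 27 (9.69% of all) with the vehicle lists swapped.

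By gene, 6 members were at anchors in vehicle libraries 2 and 3 but not in the knockout library (5.83%), against 1.8% of all genes. Among them were Ndufs6, Uqcrb, Cox7b, Atp5d and Atp5e. Swapped classes held 11 members (12.0% of all genes) at anchors in vehicle replicate 2 and knockout and not vehicle replicate 3, and 1 member (2.84% of all genes) with the vehicle lists exchanged, drawn from 36 members (28.6% of all genes) and 26 members (19.5% of all genes). Of the 6, 3 were at anchors in all 3 wild-type lists (2.91% of members; 0.911% of all genes), Cox7b and Atp5e among them. Atp5e, the epsilon subunit of ATP synthase, had 2, 2 and 1 loops in vehicle replicate 2, vehicle replicate 3 and progesterone. The X-linked Cox7b had 1, 2 and 2. Knockout anchors lay close to both genes, 0.7 kb from Cox7b and 5.90 kb from Atp5e. The 400 kb loop at Atp5e, with 25 kb anchors in each wild-type list, was matched in the knockout list within the 10 kb allowed. A matching loop was thus still listed there, but no knockout anchor bin took in the gene. The 160 kb loop at Atp5d, in vehicle replicates 2 and 3, was likewise matched in the knockout list. So were the Cox7b loops of vehicle replicate 3 and progesterone. The 900 kb Cox7b loop and the 375 kb Atp5e loop of vehicle replicate 2 were not. For the matched loops the difference is one of bin placement and does not show a lost contact.

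Genes that serve the chain under other names were at anchors too. Of 43 such genes, 26, 18, 16 and 32 were at anchors in vehicle replicate 2, vehicle replicate 3, progesterone and knockout (60.5, 41.9, 37.2 and 74.4%), against 34.3, 23.9, 27.8 and 43.6% of all genes. Assembly factors with other names gave 16, 11, 9 and 20 of 23, with 6 in all 4 lists. Cytochrome c and the electron carriers gave 2, 2, 2 and 6 of 7, and Cycs, the somatic cytochrome c gene, had 0, 0, 0 and 1 loops. Of 13 regulators, 8, 5, 5 and 6 were at anchors. Gabpa had 3, 1, 1 and 3 loops, Esrra, the estrogen-related receptor alpha gene, 2, 1, 2 and 3, and the mitochondrial transcription factor gene Tfb2m 2, 2, 1 and 1, while Nrf1, Gabpb1, Polrmt, Ppargc1b and Pprc1 had 0 in every list.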

How the data were processed

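Per the labels' protocols, an Arima Hi-C kit was used. For each of 4 libraries the authors deposited a loop list with 6 columns that place its 2 anchors (5, 10 or 25 kb wide) on a chromosome. Deposited values are positions in bases on mm10 with no count, score or depth, and Juicer 1.5.6 is named, per the submitters' processing notes. The loop caller was not given in the sources used here.

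Gene positions, promoters and start sites came from RefSeq tables of GRCm38.p6, the assembly behind mm10. The start site was known for 85 members (82.5%). All other members are named only. A gene was at an anchor when its start or end lay inside. Loops matched when both anchors overlapped after 10 kb was added to each side. Shares were set beside those of all protein-coding genes, also weighted to the members over 5 classes of neighbouring gene number (100 kb window). Intervals are exact (Clopper-Pearson, 95%). Python 3.11.15, numpy 2.4.6, pandas 2.3.3, scipy 1.17.1 and matplotlib 3.10.9 were used, and the counting was tested on simulated lists.

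Libraries were grouped by the labels. Genes named include members at anchors in all 4 lists, those with most loops, and those at loops that differ from both vehicle lists. All 20 members at anchors only in the knockout are named too. Isoforms, members with a motif, some members never at an anchor and genes under other names were added. Partners were limited to 4 per named member. The members and lists were chosen with earlier results of these data known. The proteasome list was corrected by 1 gene after its values were seen. Other placements, anchor sizes, matching distances, windows and left-out vehicle libraries were tried as alternatives. Estradiol samples were not analysed here. Some genes that the rule names are not reported here.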

Additional observations from a re-analysis of the deposited data

How the results depend on the processing

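Counting genes within 10 kb of an anchor raised the members at anchors to 53 in vehicle replicate 3 (51.5%; all genes 41.3%) and 52 after progesterone (50.5%; 46.0%), the members in all 4 lists to 43 (41.7%; 33.7%), and loops at members with a gene opposite to 76.5, 76.9 and 80.5% in vehicle replicate 2, vehicle replicate 3 and knockout (59.0, 58.3 and 63.5% over all gene-bearing anchors). With anchors of 10 kb or less the median loop in vehicle replicate 3 was 85 kb. Matching with 0 kb added gave 11 progesterone loops outside the vehicle lists, where 10 kb gave 6. Shared vehicle loops missing from the knockout numbered 9 with 0 kb added, 1 with 10 kb and 2 with 25 kb, so that count depends on the matching distance. Leaving out either vehicle library gave 15 to 33 loops not in progesterone, 6 to 14 progesterone loops outside vehicle, and 8 to 17 loops not in the knockout. Shares of all loops were not taken for these matching distances and left-out libraries, so the counts have no background. The gene length, reduced gene set and CpG settings, added after seeing the data, moved the background as printed above. Start site only, a 250 kb window, and leaving out assembly factors kept the values within their counting intervals or within 1.5 times. No paired analysis was possible because the groups share fewer than 2 replicate numbers. Depth is unknown, 1 library per treated or mutant group allows no test, and bins of 5 to 25 kb do not separate close genes.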

Other observations

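Very long loops touched a few members. Single lists held, among others, a 12.6 Mb loop from Ndufv2 to Rab5a, a 6.05 Mb loop from Cox6a1 to Naa25 and Trafd1 (both knockout) and a 2.9 Mb loop from Ndufaf5 to Snrpb2 (vehicle replicate 2).

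Of the 31 members never at an anchor, 15 were within 10 kb of one in some library. The share among all genes never at an anchor was not counted. Cox4i1 lay 0.792 kb and Ndufa2 2.33 kb from an anchor in all 4 lists. Ndufa4 was 353 kb from an anchor in vehicle replicate 2 and 343 kb in the other lists. Where the start site of a member was in an anchor, the gene ran into its loop in 54.5, 56.3, 54.3 and 58.0% of cases in vehicle replicate 2, vehicle replicate 3, progesterone and knockout, against 52.0, 51.9, 52.1 and 51.3% for all genes, inside the intervals.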
